A study of Mus musculus with 23 samples.

Results

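The T and NK lymphocyte genes described here are 36 genes chosen by name: the chains of the T-cell receptor and CD3, the coreceptors CD4 and CD8, costimulatory and adhesion receptors, proximal signalling proteins, lineage transcription factors, receptors for IL-7 and IL-2, and cytotoxic and natural killer (NK) receptor genes. Each was matched by its Ensembl identifier to 1 row of a table of 55401 gene identifiers in 23 bulk RNA libraries, and all 36 were found. The libraries came from sections of tumours grown under the skin of both flanks of male C57/BL6 mice, 8 to 10 weeks old, from TC2Ras cells, a TRAMP-C2 derivative (mouse prostate adenocarcinoma) given an activated H-ras by lentivirus. In all mice a plasmid was delivered to the tibialis anterior, 10 µg for each muscle, with microbubbles and ultrasound (sonoporation). The plasmid was either the empty control pTSTA-ctrl (EV, 12 libraries) or pTSTA-IL27pepL, which encodes the cytokine IL-27 with a targeting peptide (IL27v, 11 libraries). The tumours were then exposed ex vivo to media, IL-27, the kinase inhibitor cabozantinib, both of these, the microtubule drug docetaxel, or an antibody that blocks PD-L1. Each of the 12 groups had 2 libraries apart from IL27v tumours exposed to IL-27, with 1. The submitters state that they sequenced to find out whether T-cell components are enhanced after IL-27. The sources used here do not give doses and lengths of the ex vivo exposures or the number of animals, so replicates may be pieces of the same tumour.

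A T cell recognises its target through a receptor made of paired alpha and beta chains, or gamma and delta chains, which has no signalling part of its own and depends on the CD3 chains and CD247. Signals pass through the kinases LCK and ZAP70 to the adaptor LAT, while CD4 or CD8 binds the presenting molecule and CD28, ICOS and CD27 add costimulation. NK cells lack this receptor and use germline-encoded receptors such as NKp46 (Ncr1), NKG2D (Klrk1) and NK1.1 (Klrb1c). Both kinds of cell kill with perforin and granzymes and secrete interferon gamma. In bulk RNA fewer cells of a type and less RNA per cell cannot be told apart.

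The CD3 genes lie side by side, and the 250 bases before each start are shown because these 3 genes were at 0 together in several libraries. Cd3g, Cd3d and Cd3e span 40056 bp of chromosome 9 (GRCm38), and the starts of Cd3g and Cd3d are 1355 bp apart on opposite strands. Capitals mark GAGGAA, 1 form of the ETS core, searched on both strands (TTCCTC is the same form on the other strand). Other forms of the ETS core were not searched, so unmarked bases may hold them. The RUNX core TGTGGT was searched in the same way and was found in none of the 3.
Cd3g (chr9:44980432-44980681, minus strand): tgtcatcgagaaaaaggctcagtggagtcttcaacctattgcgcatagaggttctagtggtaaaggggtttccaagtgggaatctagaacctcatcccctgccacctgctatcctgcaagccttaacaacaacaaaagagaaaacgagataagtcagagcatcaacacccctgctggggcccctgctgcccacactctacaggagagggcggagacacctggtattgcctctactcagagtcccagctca
Cd3d (chr9:44981536-44981785, plus strand): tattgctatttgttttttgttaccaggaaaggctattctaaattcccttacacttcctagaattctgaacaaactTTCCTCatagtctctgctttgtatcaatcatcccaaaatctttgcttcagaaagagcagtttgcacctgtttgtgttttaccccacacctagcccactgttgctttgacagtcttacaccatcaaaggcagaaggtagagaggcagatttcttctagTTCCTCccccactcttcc
Cd3e (chr9:45009612-45009861, minus strand): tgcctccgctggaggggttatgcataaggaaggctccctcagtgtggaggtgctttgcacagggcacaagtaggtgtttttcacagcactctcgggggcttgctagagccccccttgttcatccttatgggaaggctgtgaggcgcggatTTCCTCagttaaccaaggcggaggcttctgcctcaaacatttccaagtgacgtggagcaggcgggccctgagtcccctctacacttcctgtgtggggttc
The sequences are from RefSeq on build GRCm38.p6, where 23 of the 36 genes had an entry. Cd3d held 2 matches to GAGGAA, Cd3e 1 and Cd3g 0. Among 32851 promoters of the same length 23.3% held at least 1 such match and 14.0% held the RUNX core.

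The genes for the constant part of the beta chain, Trbc1 and Trbc2, are near copies, and a stretch with several of their differences is shown because such bases let a read be assigned to one of them. Their coding sequences differ at 24 of 512 compared bases (95.3% identity), with 1 difference in the first exon of 375 bases and an identical run of 259 bases. Capitals mark the 8 differing bases in the first 60 coding bases of the third exon, read from the GRCm38 genome.
Trbc1 (chr6:41539229-41539288, plus strand): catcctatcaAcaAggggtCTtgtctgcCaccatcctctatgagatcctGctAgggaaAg
Trbc2 (chr6:41547772-41547831, plus strand): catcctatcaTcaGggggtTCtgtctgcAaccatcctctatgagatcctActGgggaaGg
The split of reads between the copies is therefore uncertain, and they are also given as a sum.

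Library totals ran from 47641781 to 83088346 estimated counts. Levels are given as CPM (library-size-scaled counts) after TMM scaling, where 1 CPM stood for 36.3 to 86.5 counts and 3 counts, taken as the limit of what a count of 0 allows, for 0.0347 to 0.0828 CPM. The libraries fell into sets by signals outside these genes. Set A holds 9 EV libraries. Set B, with at least 5 CPM of the neutrophil gene Ngp, holds both IL27v media libraries and, of EV, anti-PD-L1 2 and the pair with cabozantinib plus IL-27. Set C, with at least 100 CPM over 13 skeletal muscle genes and no such Ngp level, holds 8 IL27v libraries. IL27v docetaxel 1 was in no set, and 27.2% of its counts came from 1 gene, CT010467.1. Vector and set therefore overlap almost completely. Over 6 markers of the tumour line the libraries had 4786 ± 1162 CPM in EV (SD, n = 12) and 4886 ± 1019 CPM in IL27v (n = 11).

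The lymphocyte genes were scarce in both kinds of tumour. All 36 together summed to 33.2 ± 22.9 CPM in EV (lowest 15.5, median 24.8, highest 92.8, n = 12) and to 50.1 ± 32.1 CPM in IL27v (lowest 13.0, median 46.4, highest 115, n = 11). The ranges overlapped over most of their length, and 7 of 11 IL27v libraries were above the EV median. Il7r, the receptor for the survival cytokine IL-7, supplied the largest single share, and without it the sums were 23.6 ± 15.2 and 34.4 ± 22.7 CPM. The heat map of gene levels by library shows the level of each gene in each library.

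**Figure D1:**
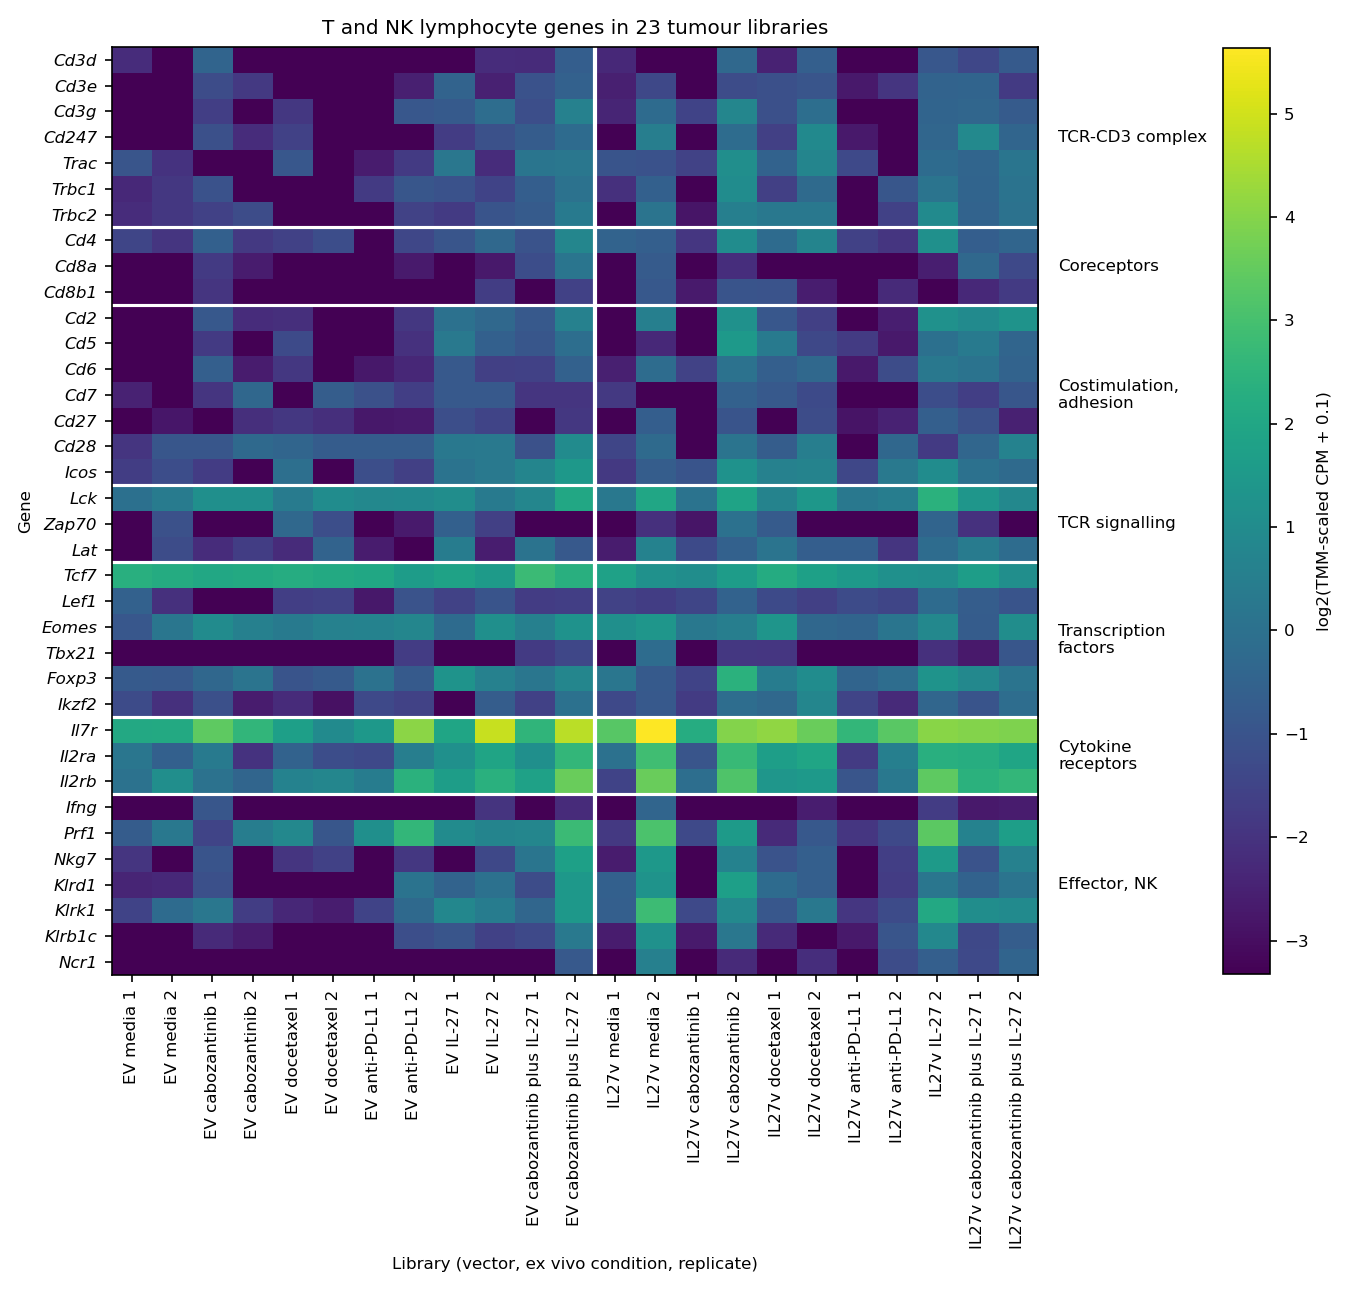
Level of each of the 36 genes (rows, grouped by role) in each of the 23 libraries (columns, EV left of the white line, IL27v right), as log2(TMM-scaled CPM + 0.1); the darkest colour is 0 CPM. Tcf7, Lck, Eomes and Il7r had counts in all 23 libraries, whereas Ncr1 had none in 11 of the 12 EV libraries.

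Levels of different genes were compared per kilobase of annotated exon, scaled to the same total in each library. On this length-scaled measure Il7r was highest (7.85 ± 6.98, n = 23 libraries), followed by Tcf7 (3.96 ± 1.44), Prf1 (2.65 ± 3.23), Il2rb (2.63 ± 2.63), Nkg7 (2.20 ± 3.31), Trbc2 (2.08 ± 2.21) and Lck (2.04 ± 1.15). Neighbours in this order differed by less than their spread over libraries. Lef1 (0.0982 ± 0.0650), Ikzf2 (0.105 ± 0.0970), Tbx21 (0.120 ± 0.218) and Cd8a (0.125 ± 0.236) were lowest. Cd4, at 0.453 ± 0.445, had a higher mean than Cd8a, with SDs larger than the gap. Tcf7, a transcription factor of early and memory T cells, was above all 7 TCR-CD3 genes by its mean, Cd3e being at 0.161 ± 0.161.

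For the TCR-CD3 complex the 7 genes together reached 1.79 ± 1.85 CPM (EV) and 3.79 ± 2.92 CPM (IL27v). With media it was at 0.752 and 0.497 CPM in the EV libraries and at 0.802 and 4.30 CPM in the IL27v libraries. With cabozantinib the EV values were 2.15 and 0.622 CPM and the IL27v values 0.532 and 8.86 CPM, the latter the highest of all 23. With docetaxel they were 0.840 and 0 CPM for EV and 2.95 and 7.05 CPM for IL27v, so both IL27v libraries were above both EV libraries there. However, IL27v docetaxel 1 is the library with 27.2% of its counts from 1 gene. The IL27v docetaxel pair also had 2204 and 2266 CPM over 6 keratinocyte genes, against 1.78 and 3.71 CPM in the EV pair. With anti-PD-L1 they were 0.246 and 1.37 CPM for EV and 0.400 and 0.820 CPM for IL27v. With IL-27 they were 2.95 and 2.14 CPM for EV and 6.00 CPM for the single IL27v library. With cabozantinib plus IL-27 they were 3.39 and 6.54 CPM for EV and 5.28 and 4.72 CPM for IL27v. Replicates of 1 group differed as much as groups did: the 2 IL27v cabozantinib libraries differed 16.6-fold and the 2 IL27v media libraries 5.36-fold.

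**Figure D2:**
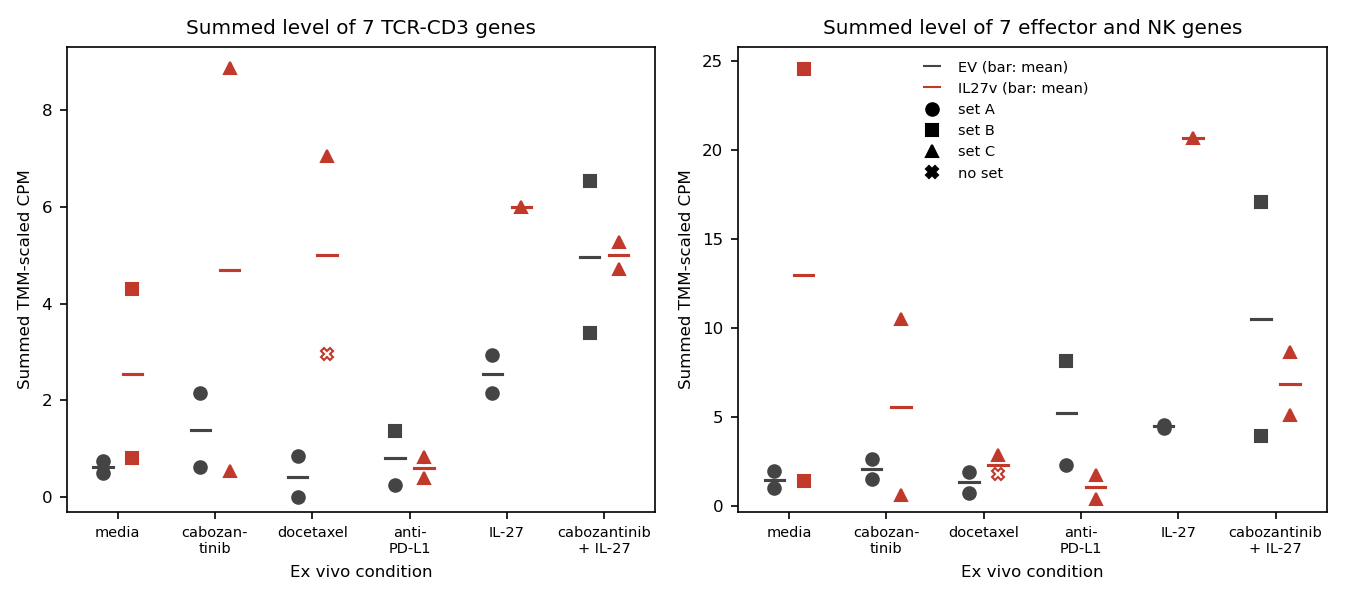
Summed level (TMM-scaled CPM) of the 7 TCR-CD3 genes (left) and of the 7 effector and NK genes (right) in each library, by ex vivo condition; grey is EV, red is IL27v, short bars are group means and symbols give the set of the library. In both panels the 7 libraries that received IL-27 ex vivo, alone or with cabozantinib, are above the median of the other 16, and IL27v media 2 and IL27v cabozantinib 2 stand far from their replicates.

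In EV media 2, EV docetaxel 2 and EV anti-PD-L1 1 no count fell on Cd3d, Cd3e or Cd3g, and EV docetaxel 2 had none on any of the 7 TCR-CD3 genes, where 3 counts would be 0.0497 CPM. The same 3 libraries, in that order, held 388, 257 and 324 counts of Tcf7, 107, 118 and 140 of Lck, 90, 87 and 120 of Eomes and 40, 29 and 76 of Foxp3. So Tcf7, Lck, Eomes and Foxp3 were present in 3 libraries where Cd3d, Cd3e and Cd3g were not detectable at this depth, although EV media 2 held 13, 15 and 15 counts of Trac, Trbc1 and Trbc2 and EV anti-PD-L1 1 held 5 of Trac and 15 of Trbc1. The 6 transcription factors summed to 7.04 ± 1.76 CPM over all 23 libraries (3.81 to 11.07) and to 6.73 ± 0.307 CPM over the 9 of set A, in which the TCR-CD3 sum ran from 0 to 2.95 CPM. The IL27v cabozantinib replicates differed 2.90-fold in this sum. Foxp3, the factor of regulatory T cells, overlaps Ccdc22 on the other strand (mean 44.0 CPM), and Cd247 overlaps Pou2f1 (16.3 CPM) and Cd27 overlaps Vamp1 (4.48 CPM) in the same way. Whether counting used strand is not stated, so reads from these partners cannot be told apart.

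Between the vectors, averaged over the 6 conditions, 0 of the 36 genes were called by edgeR's quasi-likelihood test at an adjusted p under 0.05, where 2.95% of the 24440 genes tested were called (2.28% higher in IL27v and 0.671% lower). DESeq2 called 5 of them, 4 higher and 1 lower, and 7.95% of all genes. Without adjustment 14 were higher at p under 0.05, against 8.82% of all genes, and 1 was lower, against 5.65%. The fitted log2 difference (IL27v minus EV) was above 0 for 32 of the 36, with a median of 1.32, against a median of 0.01 over all genes tested. The 36 include Cd3d, Cd3g, Cd8a, Cd8b1, Ifng, Zap70 and Tbx21, for which this fit gave no usable error. Others had EV groups at 0, so the size of their differences depends on the prior count. The median over all genes is not matched for low counts. In the plot of mean levels most genes lie above the line of equal means.

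**Figure D3:**
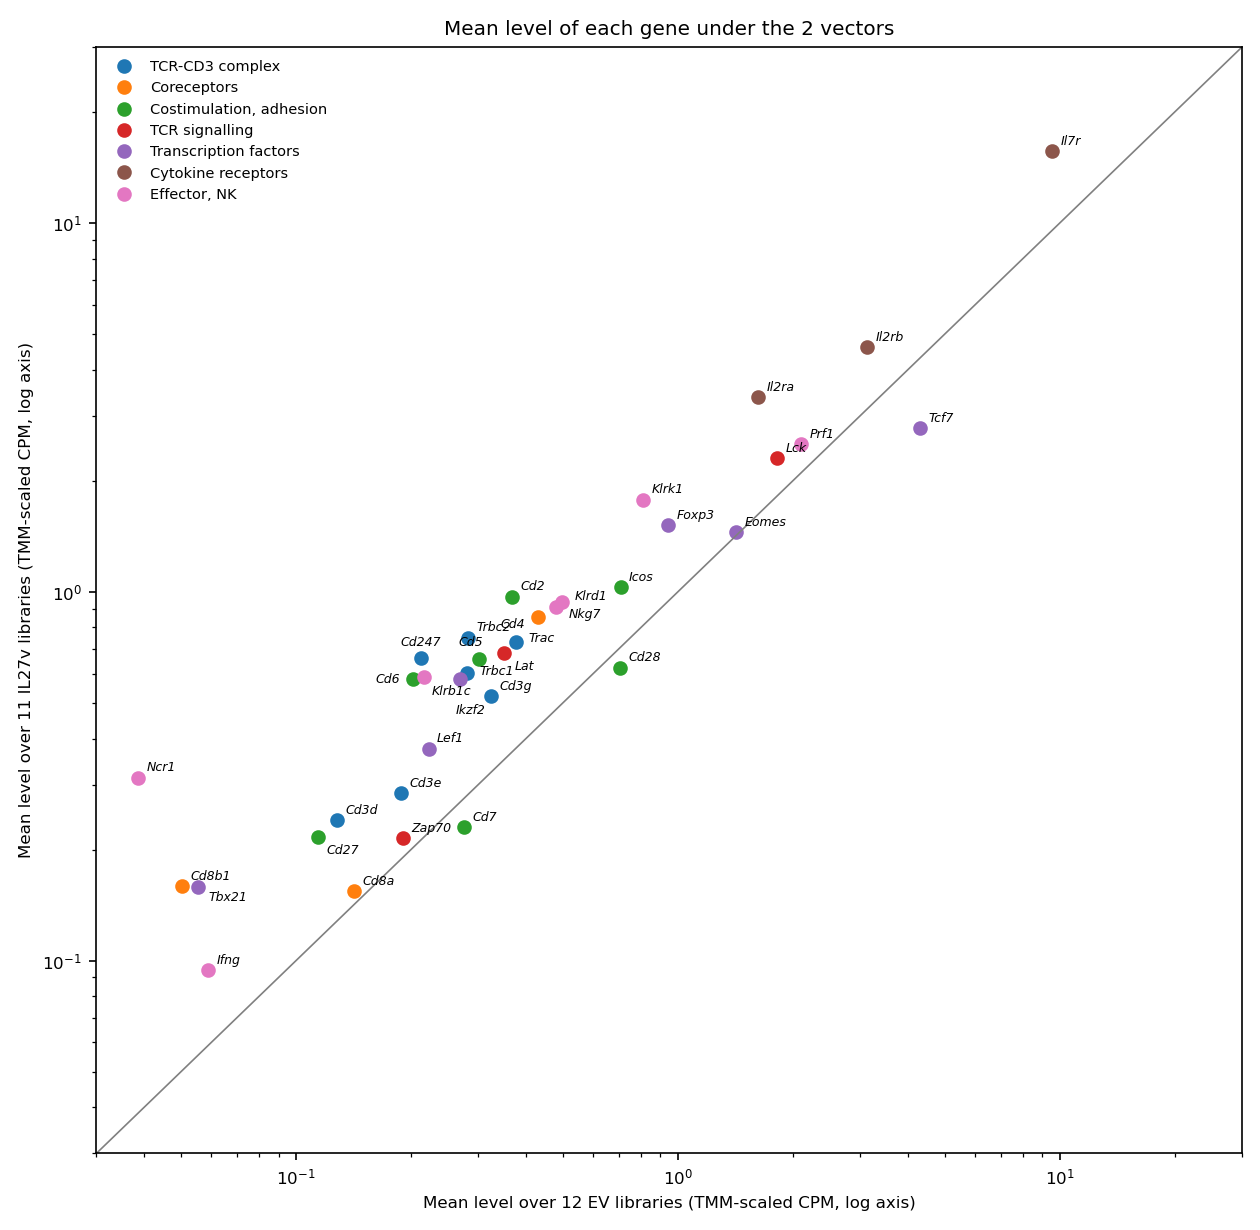
Mean level of each of the 36 genes over the 11 IL27v libraries against its mean over the 12 EV libraries (TMM-scaled CPM, both axes log), coloured by role; the line marks equal means. Most genes are above the line, and Tcf7, Cd7 and Cd28 are below it.

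Among receptor genes Cd6, a scavenger-type receptor that tunes T-cell activation, was nearest to a call. It ran from 0 through a median of 0.137 to 0.580 CPM in EV and from 0.0516 through 0.631 to 1.09 CPM in IL27v. The ranges overlapped, and 3 EV libraries and 0 IL27v libraries were at 0. Its log2 difference was 2.61 ± 0.69 (SE; edgeR adjusted p = 0.052). Cd3e had 0.188 ± 0.237 CPM (EV) and 0.284 ± 0.218 CPM (IL27v), with 5 of 12 and 1 of 11 libraries at 0 and the highest libraries at 0.630 and 0.645 CPM (log2 difference 2.65 ± 0.82; edgeR adjusted p = 0.11). The signalling chain Cd247 was at 0.212 ± 0.248 and 0.661 ± 0.694 CPM (3.07 ± 1.04; edgeR adjusted p = 0.15). For the alpha and beta chain genes, Trac was at 0.377 ± 0.433 and 0.730 ± 0.621 CPM (edgeR adjusted p = 0.18), Trbc1 at 0.280 ± 0.272 and 0.604 ± 0.572 (edgeR adjusted p = 0.26) and Trbc2 at 0.282 ± 0.330 and 0.751 ± 0.624 (edgeR adjusted p = 0.17), with log2 differences of 2.07 ± 0.76, 2.17 ± 0.90 and 2.46 ± 0.89. The 3 together were at 0.938 ± 0.920 and 2.08 ± 1.64 CPM. Cd2, an adhesion receptor, was at 0.368 ± 0.457 and 0.970 ± 1.01 CPM (2.34 ± 0.99; edgeR adjusted p = 0.27). For Cd6, Cd3e, Cd247, Trac, Trbc1, Trbc2 and Cd2 at least 1 EV group was at 0 in both libraries, so their fitted log2 differences depend on the prior count and are no bounds.

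The coreceptor Cd4 ran from 0 through 0.301 to 1.64 CPM in EV and from 0.161 through 0.624 to 2.17 CPM in IL27v (log2 difference 1.12 ± 0.54; edgeR adjusted p = 0.36). Cd8a was at 0 in 6 of 12 EV and 6 of 11 IL27v libraries, with means of 0.142 ± 0.293 and 0.154 ± 0.247 CPM and its highest value, 1.01 CPM, in EV cabozantinib plus IL-27 2. Ifng was at 0 in 9 of 12 EV and 6 of 11 IL27v libraries, and its highest value was 0.657 CPM in IL27v media 2. For Cd8a, Ifng, Cd3d, Cd3g, Cd8b1, Zap70 and Tbx21 groups of both vectors were at 0, and the fit with a mean per group gave no usable error. A model that adds vector and condition gave log2 differences of 0.13 ± 1.73 for Cd8a and 1.20 ± 1.68 for Ifng (edgeR adjusted p = 0.98 and 0.79).

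Transcription factors had differences of both signs. Tcf7 ran from 2.82 through 4.28 to 6.82 CPM in EV and from 1.99 through 2.79 to 4.50 CPM in IL27v. Its ranges overlapped, but 1 of 11 IL27v libraries was above the EV median. Its log2 difference was -0.66 ± 0.19 (edgeR adjusted p = 0.073). Lef1, the factor most closely related to Tcf7, had a difference of the opposite sign, 1.71 ± 0.49 (edgeR adjusted p = 0.076), from levels of 0.222 ± 0.172 CPM (EV) and 0.375 ± 0.184 CPM (IL27v); EV cabozantinib was at 0 in both libraries. Foxp3 was at 0.943 ± 0.589 and 1.52 ± 1.38 CPM (0.77 ± 0.38; edgeR adjusted p = 0.38), and its highest library, IL27v cabozantinib 2, had 5.20 CPM. Eomes, a factor of cytotoxic and NK cells, was at 1.42 ± 0.526 and 1.45 ± 0.723 CPM (0.03 ± 0.32; edgeR adjusted p = 1.0).

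Of the cytokine receptors, Il7r ran from 1.87 through 5.0 to 29.7 CPM in EV and from 4.58 through 14.7 to 49.6 CPM in IL27v (log2 difference 0.88 ± 0.41; edgeR adjusted p = 0.33). Il2ra, the high-affinity chain of the IL-2 receptor found on activated and regulatory T cells, ran from 0.148 through 1.12 to 6.07 CPM and from 0.194 through 3.77 to 7.35 CPM (1.39 ± 0.51; edgeR adjusted p = 0.18). Il2rb, the chain shared with the IL-15 receptor, was at 3.13 ± 3.15 and 4.60 ± 4.27 CPM.

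Among the effector and NK genes the spread between IL27v libraries was the main feature. The sum of the 7 was 4.20 ± 4.55 CPM for EV and 7.13 ± 8.38 for IL27v, and the medians, 2.49 and 2.86 CPM, were close. Ncr1 had counts in 1 of 12 EV libraries (0.464 CPM in EV cabozantinib plus IL-27 2) and in 7 of 11 IL27v libraries, up to 1.39 CPM (log2 difference 5.75 ± 1.49 with 5 EV groups at 0; edgeR adjusted p = 0.065). Klrb1c was at 0.216 ± 0.329 and 0.588 ± 0.750 CPM (3.14 ± 0.95 with 2 EV groups at 0; edgeR adjusted p = 0.10). Klrd1, which encodes CD94, was at 0.498 ± 0.752 and 0.939 ± 1.00 CPM (2.15 ± 1.00 with 1 EV group at 0; edgeR adjusted p = 0.34). Klrk1 ran from 0.0663 through 0.705 to 2.67 CPM in EV and from 0.168 through 1.10 to 6.90 CPM in IL27v (1.23 ± 0.48; edgeR adjusted p = 0.21). Prf1, which encodes perforin, ran from 0.257 through 1.58 to 6.78 CPM in EV and from 0.110 through 0.448 to 10.2 CPM in IL27v, so its IL27v median was the lower one and its IL27v maximum the higher one (-0.14 ± 0.55; edgeR adjusted p = 1.0).

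The sets moved with the TCR-CD3 genes as well as the vectors did. Their sum was 1.13 ± 1.02 CPM in set A (n = 9), 3.28 ± 2.32 CPM in set B (n = 5) and 4.21 ± 3.25 CPM in set C (n = 8). Set B is the one set with both vectors, though in different conditions, and there the EV libraries had 1.37, 3.39 and 6.54 CPM and the IL27v libraries 0.802 and 4.30 CPM. With the set as a term in the additive model, and without IL27v docetaxel 1, 0 of the 36 genes and 0 of all genes were called by edgeR. In that model 24 of 36 differences were above 0. Among those that turned negative were Trac, Trbc1, Trbc2, Lef1, Klrd1 and Cd4, whereas Cd247, Cd6, Cd2, Klrb1c and Cd3e had larger positive values than without it. Vector and set cannot be told apart in these libraries. Summed, the 5 general leukocyte genes had 95.3 ± 55.0 CPM (EV) and 128 ± 67.9 CPM (IL27v), the 9 macrophage genes to 432 ± 202 and 397 ± 193 CPM, the 9 B and plasma cell genes to 3.01 ± 1.58 and 32.4 ± 83.1 CPM (7.36 ± 6.64 without IL27v cabozantinib plus IL-27 1) and the 13 skeletal muscle genes to 135 ± 235 and 744 ± 272 CPM. The 6 keratinocyte genes had 2.70 ± 1.28 CPM (EV) and 459 ± 891 CPM (IL27v), highest in the IL27v docetaxel pair. The 5 erythroid genes had 39.3 ± 23.7 and 352 ± 457 CPM, highest in the IL27v libraries given IL-27 ex vivo (554 to 1576 CPM). For 6 neutrophil genes the sums were 9.81 ± 14.0 and 52.6 ± 92.2 CPM, and for 6 dendritic cell genes 17.5 ± 4.50 and 10.6 ± 1.60 CPM. Mast cell and megakaryocyte genes, 7 in all, had 74.6 ± 43.3 and 70.3 ± 37.1 CPM. Thymocyte genes, 4 in all, summed to at most 0.592 CPM in any library. The part of these cell types in the lymphocyte levels was not tested.

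With media alone, the comparison with no drug, edgeR called 0 of the 36 genes (0% of all genes were called), and DESeq2 called 2 (3.18% of all genes). Without adjustment 9 were higher, against 4.21% of all genes, and 0 were lower, against 4.82%. The number passing changed strongly with 1 media library left out. It fell without IL27v media 2 or either EV media library and rose without IL27v media 1. Shares over all genes are not given for those fits, so their counts are not printed. The 2 IL27v libraries lay far apart. In IL27v media 2 Il7r was at 49.6 CPM, Il2rb at 11.9, Prf1 at 8.50, Klrk1 at 6.90 and Nkg7, a cytotoxic granule protein, at 2.63 CPM, whereas in IL27v media 1 they were at 9.87, 0.253, 0.178, 0.550 and 0.0594 CPM. The EV media libraries had 4.10 and 4.23 CPM of Il7r, 0.950 and 2.06 of Il2rb, 0.515 and 1.11 of Prf1, 0.251 and 0.774 of Klrk1 and 0.158 and 0 of Nkg7. For Il2rb and Prf1 IL27v media 1 was thus below both EV libraries and IL27v media 2 above both. Il7r, higher in both IL27v libraries, had a log2 difference of 2.83 ± 1.03 (edgeR adjusted p = 0.34), and Klrk1 one of 2.85 ± 1.18 (edgeR adjusted p = 0.44). Without IL27v media 2 the difference of Il7r was 1.24 and that of Klrk1 0.10. Cd2, Cd6, Cd247, Cd3e, Cd3g, Cd8a and Klrb1c also had an unadjusted p under 0.05, but both EV media libraries were at 0 for each of them, and no fold is given. IL27v media 2 was the highest of all 23 libraries for 11 of the 36 genes and for the general leukocyte sum.

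Each ex vivo exposure was set against media within a vector, and the differences under EV and IL27v were averaged. The comparisons share the 4 media libraries, so they are not independent of each other. They also cross sets. Both IL27v media libraries are in set B, while the IL27v exposure libraries are in set C, apart from IL27v docetaxel 1, in no set. The EV media libraries are in set A, while both EV libraries with cabozantinib plus IL-27 and EV anti-PD-L1 2 are in set B. The averages therefore mix exposure with set. No exposure gave a called gene among the 36 with edgeR. After IL-27, with 0% of all genes called, 7 of the 36 were higher without adjustment, against 8.68% of all genes, and 0 were lower, against 3.22%, and DESeq2 called 2 (2.51% of all genes). The median log2 difference of the 36 was 1.19, against -0.027 over all genes. After cabozantinib plus IL-27, with 0.00409% called, 8 were higher, against 3.05%, and 0 lower, against 1.42%. DESeq2 called 0 (0.237% of all genes), and the median was 1.51, against 0.031 over all genes. After cabozantinib, with 0% called, 3 were higher, against 7.69%, and 1, Lef1, was lower, against 2.82%, with DESeq2 calling 0 (1.21% of all genes). After docetaxel, with 1.79% called, 2 were higher, against 10.5%, and 1 lower, against 4.81%, and DESeq2 called the 1 that was lower (6.84% of all genes). After anti-PD-L1, with 0% called, 0 were higher, against 4.29%, and 1 was lower, against 1.55%. With DESeq2 0 were called (0.43% of all genes), and the median log2 difference was -0.86, against -0.0089 over all genes. These medians include genes at 0 in both EV media libraries, such as Cd2, Cd5 and Cd6. Fitted differences of such genes depend on the prior count, so the size of the medians is uncertain. These unadjusted counts, both directions together, depended on single libraries. Shares over all genes are not given for the fits with 1 library left out, so only the direction of the change is described. Leaving out IL27v media 2 gave the highest count for each of the 5, tied for docetaxel with EV docetaxel 2 and for anti-PD-L1 with IL27v anti-PD-L1 2. The lowest came without EV media 1 (IL-27), either EV media library (cabozantinib plus IL-27), EV cabozantinib 1 (cabozantinib), either EV media library or EV docetaxel 1 (docetaxel) and EV anti-PD-L1 1 (anti-PD-L1). The gene that was lower after docetaxel and after anti-PD-L1 was Klrk1, with log2 differences of -2.42 ± 0.85 and -2.02 ± 0.82 (edgeR adjusted p = 0.18 and 0.78). Its media level includes the 6.90 CPM of IL27v media 2, and without that library the differences were -1.04 and -0.64.

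Foxp3 was the 1 gene with an unadjusted p under 0.05 after IL-27 that had counts in both media groups and both IL-27 groups throughout. It was at 0.475 and 0.462 CPM with media and 2.32 and 1.42 CPM with IL-27 in EV, and at 1.04 and 0.478 CPM with media and 2.32 CPM with IL-27 in IL27v. All 3 libraries with IL-27 were above all 4 with media (log2 difference 1.80 ± 0.70; edgeR adjusted p = 0.34). The other 6, Cd2, Cd3e, Cd3g, Cd5, Cd6 and Klrb1c, were at 0 in both EV media libraries. In EV with IL-27 Cd2 was at 0.903 and 0.719 CPM, Cd5, an inhibitory receptor of T cells, at 1.14 and 0.575 CPM, Cd3g at 0.477 and 0.810 CPM and Cd3e at 0.630 and 0.0784 CPM. The EV libraries with media and with IL-27 all belong to set A.

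Over all 7 libraries that received IL-27 ex vivo, with or without cabozantinib, the TCR-CD3 sum ran from 2.14 through a median of 4.72 to 6.54 CPM. In the other 16 libraries it ran from 0 through 0.811 to 8.86 CPM, so the ranges overlapped above 2.14 CPM. The effector and NK sum ran from 3.93 through 5.11 to 20.7 CPM with IL-27 and from 0.387 through 1.89 to 24.6 CPM without. For 16 of the 36 genes all 7 libraries were above the median of the other 16, against 2.02% of the 24440 genes tested, and for 0 of the 36, and 0 of all, were the ranges apart with IL-27 higher. Those 16 are Cd3e, Cd3g, Cd247, Trbc1, Cd4, Cd2, Cd5, Cd6, Icos, Foxp3, Il2ra, Il2rb, Prf1, Klrd1, Klrk1 and Klrb1c. Tcf7 was an exception, with 2 of 7 above that median. This grouping was made after the values were seen, joins 2 exposures, and was not tested. The general leukocyte sum moved partly with it: 6 of the 7 libraries were above the median of the others, and EV IL-27 2 had the second highest value of the 23. EV cabozantinib plus IL-27 1, with 3.39 CPM of TCR-CD3 genes, had the lowest general leukocyte sum (42.9 CPM) and the lowest macrophage sum (214 CPM) of the 23.

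Some T-cell, inhibitory receptor and gamma-delta receptor genes outside the 36 were called. Over all genes 2.28% were called higher, and 8.82% were higher and 5.65% lower without adjustment. Of 22 other T-cell genes 21 were tested, and between the vectors 2 rose and 0 fell by edgeR. Ubash3a, a phosphatase that restrains receptor signalling, ran from 0 through 0.0246 to 0.256 CPM in EV and from 0.0538 through 0.336 to 0.883 CPM in IL27v (log2 difference 3.54, 2 EV groups at 0; edgeR adjusted p = 0.029). Of 6 inhibitory receptor genes 1 rose, Havcr2, which encodes TIM-3 and is also made by macrophages and dendritic cells, from 3.21 ± 1.95 to 6.69 ± 3.15 CPM (1.05 ± 0.27; edgeR adjusted p = 0.049). None of the 15 tested of 16 other cytotoxic and NK genes was called, and none of 6 chemokine and chemokine receptor genes; without adjustment 1 of the 15 was higher and 1 lower, and 1 of the 6 was higher. With the set as a term neither Ubash3a nor Havcr2 was called. Leaving out 1 library at a time, the call of Ubash3a was kept in 15 of 23 fits and that of Havcr2 in 2.

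Of 5 gamma-delta receptor genes 1 rose, Trdc, the constant part of the delta chain. It ran from 0 through 0.126 to 1.19 CPM in EV and from 0 through 1.85 to 57.7 CPM in IL27v (log2 difference 4.08 ± 0.85; edgeR adjusted p = 0.014). IL27v media 2 held the 57.7 CPM, and the next highest libraries were IL27v cabozantinib plus IL-27 2 with 9.06 and IL27v IL-27 2 with 7.13 CPM. Without IL27v media 2 the log2 difference was 2.94 (edgeR adjusted p = 0.054), and 19 of 23 such fits, each short of 1 library, kept the call, which was also lost without IL27v cabozantinib 2 (2.55), EV media 2 or EV cabozantinib plus IL-27 1. Per kilobase of exon Trdc was at 41.2 in IL27v media 2, where Trac, Trbc1 and Trbc2 together were at 7.13. The genes for the constant part of the gamma chain, Tcrg-C1, Tcrg-C2 and Tcrg-C4, had means of 0.03, 0.04 and 0.03 CPM over the 23 libraries. In IL27v media 2 they were at 0, 0.149 and 0.0896 CPM.

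**Figure D4:**
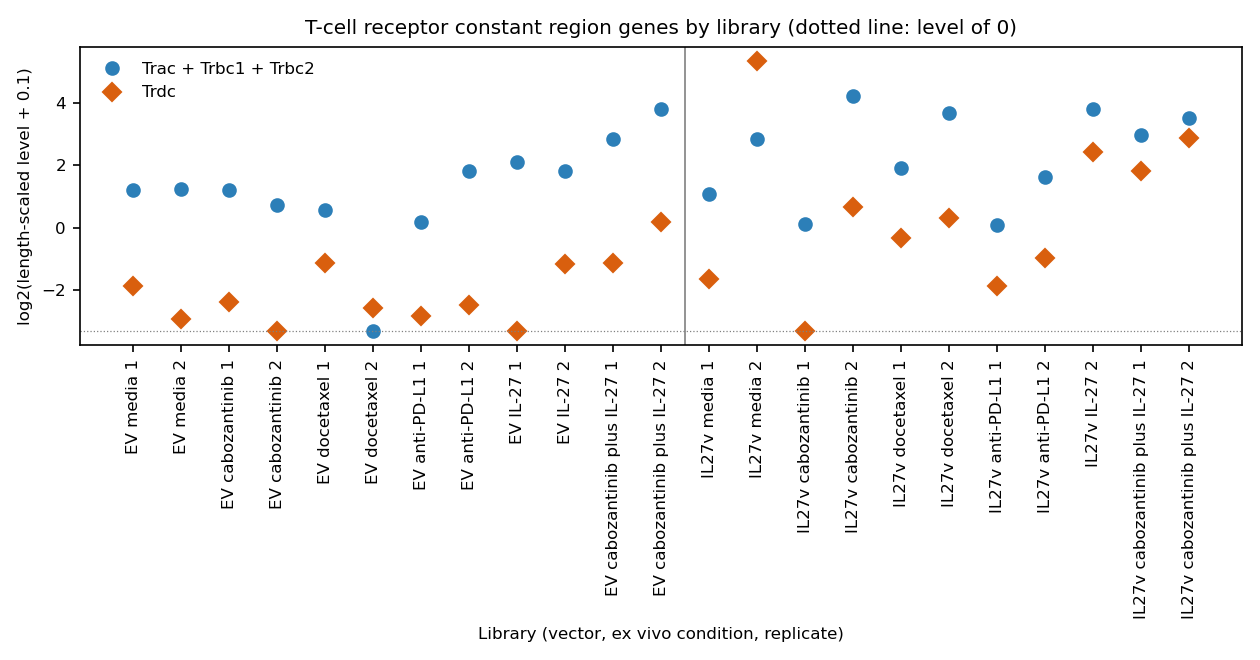
Length-scaled level (per kilobase of exon, scaled to the same total in each library; log2 after adding 0.1) of Trdc (diamonds) and of Trac, Trbc1 and Trbc2 together (circles) in each library, EV left of the vertical line. Trdc in IL27v media 2, at 41.2, is the highest point, while in EV docetaxel 2 the 3 alpha and beta chain genes are at 0.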

How the data were processed

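Poly(A) RNA libraries from 23 tumour samples were analysed. The submitters' processing notes name cutadapt, HISAT2, StringTie and DESeq2 with build GRCm38; the sources used here give neither versions nor settings. A single table of estimated counts was deposited by the authors. Its values are whole numbers, but 143 genes have 1 identical nonzero value throughout, and 31.7 to 35.3% of counts from 1 to 40 are multiples of 4, so low values carry less information than plain counts. GENCODE gave symbols to 55141 of 55401 identifiers.

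Samples were grouped by title. edgeR 4.0.16 in R 4.3.3 (TMM scaling, filterByExpr by group, glmQLFit and glmQLFTest) tested 24440 genes, among them all 36 described, in a model with a mean for each of the 12 groups (11 residual degrees of freedom, biological coefficient of variation 0.623), with Benjamini-Hochberg adjustment over all genes tested. Differences within the 6 conditions were averaged to give the vector effect. The SE is the absolute log2 difference divided by the square root of F. Summed CPM values have no test. P-values reflect only how these samples vary, and that variation may be technical. Alternatives were DESeq2 1.42.0, RLE size factors, no filter, at least 1 CPM in 4 libraries, a replicate block, counts divided by 4, additive models with and without the set, and leaving out each library. The fit of the vector effect was tested on simulated counts, with changes only in genes with a mean of at least 1 CPM. That test does not cover those of the 36 genes with lower means.

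The genes and lists were chosen with earlier results of these data known. Any of the 36 could be named, with log2 differences for those with a p under 0.05 and for Cd3e, Cd4, Cd8a, Ifng, Prf1 and Foxp3, except against a media group at 0. Genes of other lists could be named where the count of their list is given; 1 called gene of the other T-cell list is not reported here. Interactions between vector and exposure were also fitted, and edgeR called 0 of the 36 genes in each of the 5 (not run with DESeq2). Without adjustment 12 passed for anti-PD-L1, 6 for cabozantinib, 4 for cabozantinib plus IL-27 and 1 each for docetaxel and IL-27. Shares over all genes are not given for the interactions, so these counts are not read as results.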

Additional observations from a re-analysis of the deposited data

How the results depend on the processing

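By edgeR 0 of the 36 genes were called in each of the 7 comparisons. Between the vectors this became 5 with DESeq2 (7.95% of all genes), 14 without a filter (4.92%) and 2 in the additive model (2.73%). It became 1 of the 18 tested with the filter of 1 CPM in 4 libraries (5.38%). With counts divided by 4 it was 1 of the 34 tested (4.68%), and with a replicate block 1 of 36 (2.33%). It remained 0 with RLE size factors (3.05% of all genes) and with the set as a term (0%). Leaving out 1 library at a time brought calls among the 36 in some fits and none in others, and the share of all genes called changed as well. Those fits leave a group with 1 library or none, so their counts among the 36 are not given. Tcf7, lower in IL27v, was called in 4 of the alternatives that kept all libraries, and its difference stayed between -0.77 and -0.62 when 1 library was left out. In media DESeq2 called 2 (3.18% of all genes) and the fit without a filter 6 (3.43%). After IL-27 these counts were 2 (2.51%) and 4 (3.3%). With 1 library left out the edgeR count after IL-27 rose above 0 in some fits, but there the share of all genes called rose as well. After docetaxel the counts with DESeq2 and without a filter were 1 (6.84%) and 4 (5.56%). Without a filter 2 were called after cabozantinib (2.86%) and 4 after cabozantinib plus IL-27 (1.07%). Anti-PD-L1 stayed at 0 in every alternative run (0.43% of all genes with DESeq2 and 1.53% without a filter). Over all genes the 722 calls between the vectors became 1944 with DESeq2, 1631 without a filter and 0 with the set as a term, and ran from 394 to 1244 with 1 library left out.

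With the set as a term, and without IL27v docetaxel 1, log2 differences reversed to -1.65 ± 1.45 (SE) for Cd4, -1.94 ± 2.65 for Klrd1, -3.08 ± 1.87 for Lef1, -2.56 ± 2.53 for Trac, -1.14 ± 2.63 for Trbc1, -2.54 ± 2.57 for Trbc2, -0.14 for Ubash3a and 0.33 ± 1.88 for Prf1; the cause was not tested. Others were larger than without it: Cd247 7.79 ± 3.59, Cd6 7.03 ± 2.43, Cd2 6.11 ± 3.60, Klrb1c 5.39 ± 2.73 and Cd3e 4.34 ± 3.04. Leaving out 1 library at a time, Prf1 ran from -0.91 to 0.12. Between the vectors, unadjusted p under 0.05 was met by 15 of the 36 genes (over all genes 8.82% were higher and 5.65% lower). With 1 library left out the fewest passed without IL27v cabozantinib 2 or without IL27v media 2.

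Summed levels of the 36 genes ran from 27.7 to 34.8 CPM in EV and from 43.5 to 53.8 CPM in IL27v with 1 library left out. Other scalings moved them by less than 1 SD. Replicate numbers gave no clear pairing of the libraries. Deviations of same-numbered libraries correlated at over 0.1 in 9 of 55 pairs of groups (-0.343 to 0.299). Of 22 libraries 14 lay closest to one with their own number, but the 2 libraries of a group mirror each other in this measure. Whether same-numbered libraries share a tumour is not stated. The replicate block gave 569 calls over all genes, lost the call of Havcr2, and added a call among the 36 genes, Ncr1 (edgeR adjusted p = 0.036 against 0.065). At these levels a gene at 0 is not detectable below 3 counts, and values of a few counts carry large counting error.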
